A study of Mus musculus with 8 samples.

Results

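A set of 10 genes of the YAP and TEAD pathway was followed through 8 poly-A RNA libraries of mouse ducts. They are 10 of the 31228 genes in the table, chosen by name: the coactivators Yap1 and Wwtr1, the TEAD transcription factors Tead1, Tead2 and Tead4, the TEAD cofactor Vgll4, the regulators Lats2, Amotl2 and Ajuba, and the target gene Ankrd1. All libraries came from C57BL/6 mice. There was 1 library of extrahepatic bile duct epithelium and 1 of pancreatic duct epithelium, both taken from dissected, collagenase-treated ducts without culture and called fresh below. There were 3 libraries of bile duct organoids and 3 of pancreatic duct organoids, grown in Matrigel with EGF, R-spondin-1, Noggin, FGF10, nicotinamide, N-acetylcysteine and B27 and collected at passages 3 to 4. Wnt3A conditioned medium and the ROCK inhibitor Y27632 were given only at the start of culture. Y27632 was given at 10 µM before the stage that the labels call luminal. The labels name no genetic change in any group. The labels used here give neither the age, sex and number of the animals nor whether replicate cultures came from separate animals, so p-values measure the spread between these libraries, which may be technical.

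YAP (Yap1) and its relative TAZ (Wwtr1) are coactivators without a DNA-binding domain of their own. In the Hippo pathway the kinases LATS1 and LATS2 phosphorylate them, which keeps them in the cytoplasm and leads to their breakdown; otherwise they enter the nucleus and bind TEAD factors at genes of growth, matrix and cytoskeleton. In liver and pancreas YAP activity is a known feature of duct cells, and it responds to cell density and to the stiffness of the matrix. Messenger RNA levels do not report phosphorylation or the place of the protein.

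The deposited values were FPKM, reads scaled for gene length and for library size, here rescaled between libraries and called scaled FPKM. This unit is per length, so levels of different genes can be set side by side, but only roughly. It uses 1 length per gene, which may differ from that of the transcripts present. The 8 libraries implied between 12876470 and 20828214 reads each. All 10 genes were at or above 1 FPKM in all 8 libraries, with an implied minimum of 155 reads in any library. Coordinates of genes were copied from the table and were identical to the GENCODE annotation of the mouse build GRCm38 for 28577 of 31141 genes. Both epithelial libraries held transcripts that mark other cell types. Summed over marker lists, acinar genes reached 18835 scaled FPKM in fresh bile duct epithelium and 39360 in fresh pancreatic duct epithelium, against 1.71 to 7.68 in organoids. Fibroblast genes summed to 1302 and 1498 against 0.15 to 2.51, and duct epithelial genes to 2759 and 686 against 5132 to 11200. Smooth muscle and pericyte genes summed to 2042 and 3664 against 0.33 to 1.60, and endothelial genes to 359 and 624 against 0.029 to 0.074. Immune genes summed to 399 and 379 against 2.64 to 12.8. Intestinal absorptive genes differed between the epithelia, at 277 (bile duct) and 12.2 (pancreatic duct), against 50.6 to 106 in organoids. Mitochondrial genes took up 24.9% and 18.8% of the summed FPKM in these 2 libraries, against 5.43% to 7.29% in organoids. The fibroblast gene Lum and the acinar genes Cpa1 and Pnlip were listed at 0 in all 6 organoids. In such bulk samples fewer cells of a type and less RNA per cell cannot be told apart, and the part of these cell types and of the mitochondrial share in the results below was not tested.

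**Figure D1:**
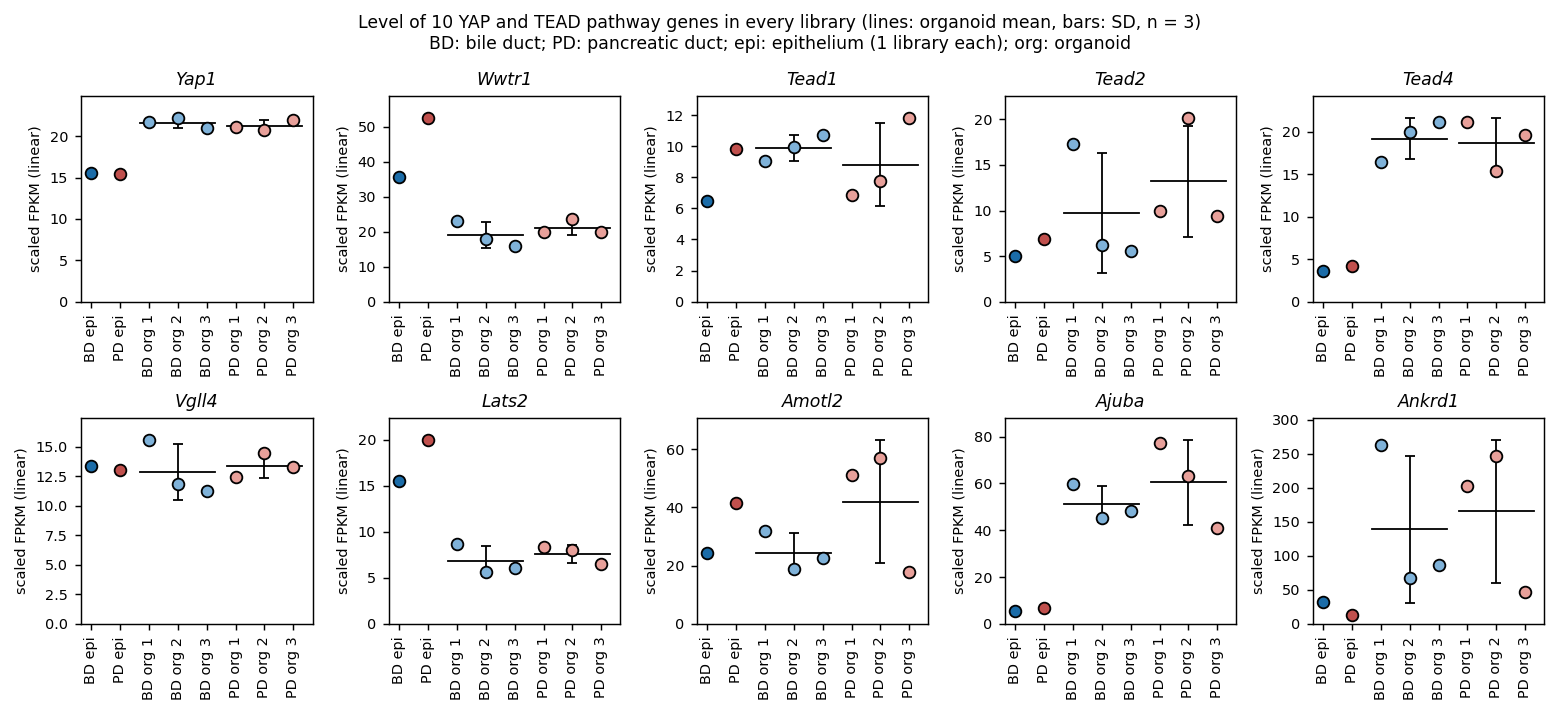
Level of each of the 10 genes in every library, in scaled FPKM on linear axes that start at 0; points are libraries, horizontal lines the mean of 3 organoid libraries and bars their SD. Yap1 sits between 20.8 and 22.2 in all 6 organoids, while Ankrd1 runs from 47.0 to 262.

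Organoids were first compared with fresh epithelium. Of the 10 genes, 4 were higher in organoids (Yap1, Tead4, Ankrd1, Ajuba), 2 were lower (Wwtr1, Lats2) and 4 did not pass the test (Tead1, Tead2, Amotl2, Vgll4). The test was limma on log2(scaled FPKM + 1) over the 8 libraries with organ as a term, Benjamini-Hochberg adjusted over 14919 genes, at a threshold of 0.05. It called 59.2% of all genes, 32.0% as higher and 27.2% as lower, so 6 called of 10 is near the background. The median log2 difference was 0.31 over the 10 genes and 0.10 over all genes tested. In the same 6 genes the 6 organoids did not overlap the 2 epithelia, as in 63.6% of all genes tested. Each organ has only 1 epithelial library, so the spread behind these p-values comes from the organoids and from the disagreement between organs.

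**Figure D2:**
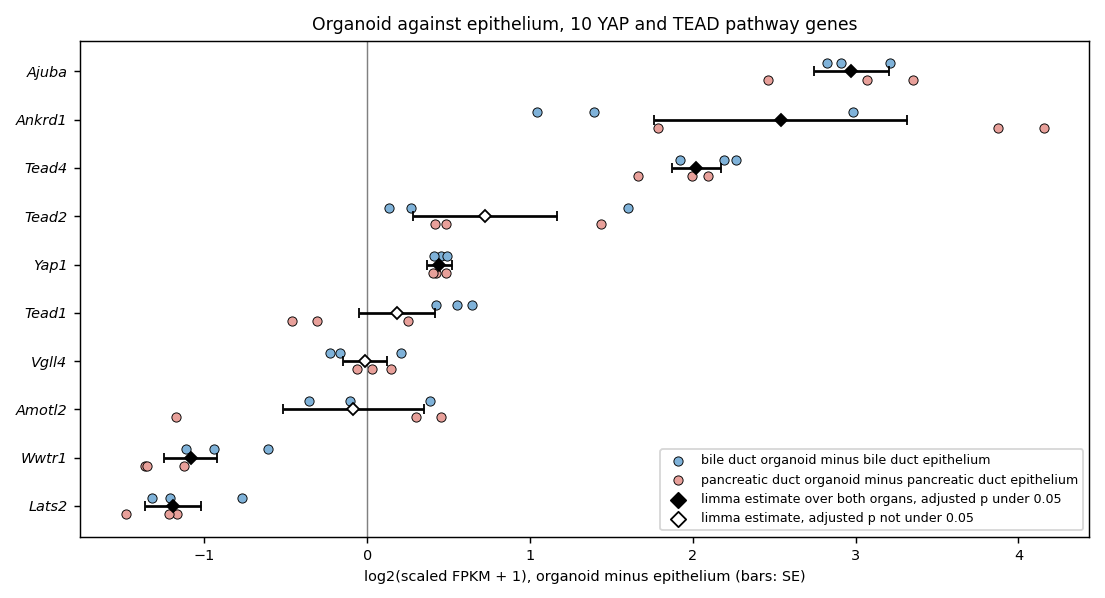
Organoid minus epithelium of the same organ on the log2(scaled FPKM + 1) scale; small points are single organoid libraries, diamonds the limma estimate over both organs with its SE, filled where the adjusted p is under 0.05. The diamonds of Ajuba, Ankrd1 and Tead4 lie to the right of 1 and those of Wwtr1 and Lats2 to the left of -1.

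Yap1 was higher in organoids than in fresh epithelium, and Wwtr1 was lower. Below, rose and fell name these directions and no tested effect of culture. Yap1 (ENSMUSG00000053110, chr9:7931999-8004596, minus strand) was at 15.6 scaled FPKM in fresh bile duct epithelium and 15.5 in fresh pancreatic duct epithelium. It was at 21.7, 22.2 and 21.0 in bile duct organoids 1 to 3 and at 21.1, 20.8 and 22.0 in pancreatic duct organoids 1 to 3. Every organoid lay above both fresh epithelia, and the organoids hardly differed. The difference was 0.44 ± 0.08 (SE) on the log2 scale, 1.36-fold, with a limma adjusted p of 0.00225. With upper quartile scaling it was 0.20 and the adjusted p 0.0722, so this call depends on the scaling.

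Wwtr1 (ENSMUSG00000027803, chr3:57455649-57575910, minus strand) had 35.6 scaled FPKM in fresh bile duct epithelium and 52.6 in fresh pancreatic duct epithelium. Its levels were 23.0, 18.0 and 15.9 in the bile duct organoids and 19.9, 23.6 and 20.0 in the pancreatic duct organoids. All organoids were below both fresh epithelia, and fresh pancreatic duct epithelium held the highest level. The log2 difference was -1.08 ± 0.16 (SE), a ratio of 0.472, with a limma adjusted p of 0.00112. Per length, Yap1 and Wwtr1 summed to 51.2 and 68.1 scaled FPKM in the fresh epithelia and to 36.9 to 44.7 in the organoids. Yap1 made up 30.4% and 22.7% of that sum in fresh bile and fresh pancreatic duct epithelium and between 46.9% and 56.9% in organoids.

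The TEAD proteins bind DNA and give YAP and TAZ their place at target genes. Tead4 was higher in organoids, Tead1 and Tead2 did not pass the test, and Tead3, the family member outside the 10 genes, was lower. Tead4 (ENSMUSG00000030353, chr6:128224288-128300823, minus strand) was the least abundant of the 4 in both fresh epithelia, at 3.61 (bile duct) and 4.18 (pancreatic duct) scaled FPKM. It reached 16.5, 20.0 and 21.1 in bile duct organoids and 21.1, 15.4 and 19.6 in pancreatic duct organoids. The lowest organoid was well above the higher epithelium. Between organoid and fresh epithelium the log2 difference was 2.02 ± 0.15 (SE), 4.06-fold, with a limma adjusted p of 3.53e-05.

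Tead1 (ENSMUSG00000055320, chr7:112679318-112906807, plus strand) was at 6.48 scaled FPKM in fresh bile duct epithelium and 9.80 in fresh pancreatic duct epithelium. The bile duct organoids had 9.02, 9.94 and 10.7 and the pancreatic duct organoids 6.84, 7.73 and 11.8. All 3 bile duct organoids were above their epithelium, but only 1 of 3 pancreatic duct organoids was. Its log2 difference was 0.18 ± 0.23 (SE) with a limma adjusted p of 0.527.

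Tead2 (ENSMUSG00000030796, chr7:45215753-45233644, plus strand) had 5.01 and 6.83 scaled FPKM in fresh bile and fresh pancreatic duct epithelium. It had 17.3, 6.25 and 5.60 in the bile duct organoids and 9.95, 20.2 and 9.43 in the pancreatic duct organoids. Bile duct organoid 1 and pancreatic duct organoid 2 stood above the rest, and the other bile duct organoids overlapped the epithelia. For Tead2 the log2 difference was 0.72 ± 0.44 (SE) with a limma adjusted p of 0.198. Exons of Tead2 and of Cd37 on the opposite strand overlap by 13 bases, and the library kit does not mark strand.

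Tead3, which is expressed in epithelia and placenta, was at 9.02 and 9.06 scaled FPKM in the fresh epithelia and at 5.81 to 8.01 in the organoids. Its log2 difference was -0.43 ± 0.12 (SE) with a limma adjusted p of 0.0205, a call lost in 3 of 14 alternatives. The 4 TEAD genes summed to 24.1 and 29.9 scaled FPKM in the fresh epithelia and to 42.4 to 51.4 in the organoids. Tead4 gave 15.0% and 14.0% of this sum in the fresh epithelia and 30.0% to 48.9% in the organoids. The share of Tead3 was 37.4% and 30.3% in the fresh epithelia and 12.9% to 15.6% in the organoids. Tead2 ranged most among organoids, from 13.0% to 39.3% of the sum.

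**Figure D3:**
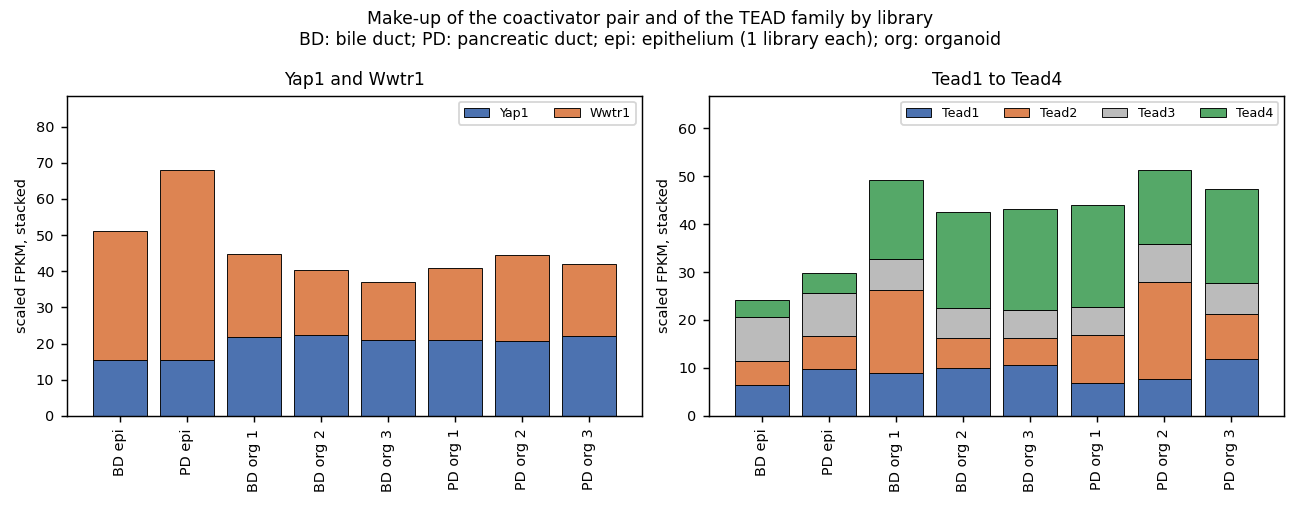
Stacked levels in scaled FPKM, Yap1 and Wwtr1 on the left and Tead1 to Tead4 on the right, 1 bar per library. The coactivator sum is lower in organoids and holds a larger share of Yap1; the TEAD sum is higher and holds a larger share of Tead4.

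Vgll4, a cofactor that competes with YAP for TEAD, had the smallest estimated difference of the 10 genes between epithelium and organoid. Vgll4 (ENSMUSG00000030315, chr6:114860628-114969994, minus strand) was at 13.4 and 13.0 scaled FPKM in fresh bile and fresh pancreatic duct epithelium. The organoids had 15.6, 11.8 and 11.3 for bile duct and 12.4, 14.5 and 13.3 for pancreatic duct. They lay on both sides of the epithelia. The log2 difference was -0.01 ± 0.14 (SE) with a limma adjusted p of 0.937.

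Of the 3 regulators, Lats2 fell, Ajuba rose and Amotl2 did not pass the test. Lats2 (ENSMUSG00000021959, chr14:57642077-57758388, minus strand), the kinase that phosphorylates YAP and TAZ, was at 15.5 and 20.0 scaled FPKM in fresh bile and fresh pancreatic duct epithelium. It was at 8.68, 5.61 and 6.12 in bile duct organoids and 8.35, 8.01 and 6.52 in pancreatic duct organoids. Every organoid lay below both fresh epithelia, with a log2 difference of -1.20 ± 0.17 (SE), a ratio of 0.437, and a limma adjusted p of 0.000907. Lats2 shares 2955 bases of exon with the gene model Gm49361 on its own strand, so its reads could not be assigned with certainty. The related kinase Lats1 had 11.6 and 13.9 scaled FPKM in the fresh epithelia and 14.9 to 19.5 in the organoids. Its log2 difference of 0.35 ± 0.13 (SE) did not pass (limma adjusted p 0.0551), though it did in 5 alternatives.

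Ajuba (ENSMUSG00000022178, chr14:54567469-54577661, minus strand) encodes a LIM-domain protein that binds LATS kinases and limits their action on YAP. It was at 5.56 scaled FPKM in fresh bile duct epithelium and 6.63 in fresh pancreatic duct epithelium. The bile duct organoids had 59.8, 45.4 and 48.3 and the pancreatic duct organoids 77.0, 63.1 and 41.1. No organoid came near the epithelia. For Ajuba the log2 difference was 2.97 ± 0.23 (SE), 7.85-fold, with a limma adjusted p of 3.98e-05. This estimate over both organs was the largest among the 10 genes. The difference of Ajuba was 2.98 in bile duct and 2.96 in pancreatic duct, where that of Ankrd1 was larger (3.27).

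Amotl2 (ENSMUSG00000032531, chr9:102716672-102733418, plus strand) encodes an angiomotin-like protein that holds YAP at cell junctions and is itself a known YAP target. It was at 24.3 and 41.4 scaled FPKM in fresh bile and fresh pancreatic duct epithelium. Bile duct organoids had 32.0, 18.7 and 22.5, and pancreatic duct organoids 51.2, 57.0 and 17.8. Organoids lay above and below the epithelia in both organs. The log2 difference was -0.08 ± 0.43 (SE) with a limma adjusted p of 0.878.

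Ankrd1, an ankyrin-repeat protein whose gene is a widely used YAP readout, was the member with the widest range. Ankrd1 (ENSMUSG00000024803, chr19:36111965-36119844, minus strand) was at 32.3 scaled FPKM in fresh bile duct epithelium and 12.9 in fresh pancreatic duct epithelium. It was at 262, 67.6 and 86.6 in bile duct organoids and at 203, 247 and 47.0 in pancreatic duct organoids. All 6 organoids were above both fresh epithelia, and bile duct organoid 1 and pancreatic duct organoids 1 and 2 were well above the other 3. The log2 difference was 2.54 ± 0.78 (SE), 5.81-fold, with a limma adjusted p of 0.0265. This call was lost without fresh bile duct epithelium (3.28, adjusted p 0.0588), without fresh pancreatic duct epithelium (1.80, adjusted p 0.250) and without pancreatic duct organoid 1 (2.36, adjusted p 0.0504).

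Upstream stretches are shown because Ankrd1, Ajuba and Amotl2 are described as targets of YAP and TEAD in other systems, and Tead2 serves as a member without the motif. The TEAD core motif CATTCC, or GGAATG on the other strand, was searched in RefSeq windows of the build GRCm38.p6 from 250 bases before to 50 bases after each start site, on both strands. Of the 10 genes 8 were matched; Tead1 and Tead4 were not. The motif was in 7 of these 8 genes and in 16.6% of the 27025 genes with a window. Of the target genes listed further on, 5 of the 15 matched held it. The 250 bases before the RefSeq start are given on the gene's own strand, 5′ to 3′, with the motif in capitals. For Amotl2 this stretch lies inside the gene span given above, and the Tead2 stretch ends inside its span.
Ankrd1, chr19:36119845-36120094, minus strand: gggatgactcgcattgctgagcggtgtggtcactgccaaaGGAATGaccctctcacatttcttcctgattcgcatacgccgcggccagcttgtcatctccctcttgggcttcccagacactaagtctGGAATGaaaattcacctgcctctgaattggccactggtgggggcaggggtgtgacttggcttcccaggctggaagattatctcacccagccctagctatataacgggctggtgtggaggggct
Ajuba, chr14:54577662-54577911, minus strand: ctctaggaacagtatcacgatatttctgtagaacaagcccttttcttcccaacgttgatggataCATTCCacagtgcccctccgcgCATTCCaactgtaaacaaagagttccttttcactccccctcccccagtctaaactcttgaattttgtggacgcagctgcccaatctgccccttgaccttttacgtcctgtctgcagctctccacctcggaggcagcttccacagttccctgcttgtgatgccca
Amotl2, chr9:102717554-102717803, plus strand: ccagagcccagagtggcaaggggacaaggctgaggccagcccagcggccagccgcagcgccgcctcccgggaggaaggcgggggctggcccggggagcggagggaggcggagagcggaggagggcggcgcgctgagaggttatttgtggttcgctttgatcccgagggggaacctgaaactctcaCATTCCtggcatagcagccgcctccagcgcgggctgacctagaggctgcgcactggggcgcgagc
Tead2, chr7:45215542-45215791, plus strand: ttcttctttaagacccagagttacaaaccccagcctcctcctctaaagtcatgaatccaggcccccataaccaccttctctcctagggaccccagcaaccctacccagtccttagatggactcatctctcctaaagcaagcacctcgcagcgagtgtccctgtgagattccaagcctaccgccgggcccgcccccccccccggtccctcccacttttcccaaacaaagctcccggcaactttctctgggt
Ankrd1 and Ajuba each held the motif at 2 places and Amotl2 at 1. The motif was also found before the start of Yap1, Wwtr1 and Vgll4 and just after a start of Lats2. A match is a description of letters. Genes with a match were higher in organoids (Yap1, Ankrd1, Ajuba), lower (Wwtr1, Lats2) or not called (Amotl2, Vgll4). A link between the motif and these differences was not tested. The AP-1 motif TGANTCA was in 0 of the 8 genes, in 1 of the 15 target genes and in 8.97% of all genes with a window.

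Within each organ the organoids were set against their 1 epithelial library without a test, counting genes whose mean log2 difference was at least 1 with all 3 organoids on the same side. In bile duct 4 of the 10 genes passed this 2-fold rule, Tead4, Ankrd1 and Ajuba as higher and Lats2 as lower, where 38.1% of all genes passed, 14.3% as higher and 23.8% as lower. In pancreatic duct 5 of 10 passed, the same 3 as higher and Wwtr1 and Lats2 as lower, where 39.5% of all genes passed, 16.7% as higher and 22.8% as lower. Wwtr1 stood at -0.89 in bile duct and -1.28 in pancreatic duct on the log2 scale. Near the limit, Lats2 in bile duct was at -1.10, but at -0.97 with FPKM as deposited and at -0.99 without bile duct organoid 2. Wwtr1 in bile duct was at -1.11 with upper quartile scaling and at -1.03 without bile duct organoid 1. For Ankrd1 the log2 difference was 1.81 ± 1.03 (SD, n = 3) in bile duct and 3.27 ± 1.29 (SD, n = 3) in pancreatic duct. Whether the organs differ in these changes was not tested.

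Between the 2 epithelia, with 1 library each, Ankrd1 was the only gene of the 10 past 2-fold. It was 1.26 higher in bile duct on the log2 scale, where 13.4% of all genes were 2-fold apart in either direction. The other 9 genes were within that fold.

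Between bile duct and pancreatic duct organoids, 3 libraries each, 0 of the 10 genes were called by limma over the 6 organoids, with adjusted p of 1.00 for each. Of all 12106 genes tested 0.00% were called, and 2.50% had an unadjusted p under 0.05, among them 0 of the 10 genes. Those 303 genes were 1024 without bile duct organoid 1, 155 without bile duct organoid 2 and 188 without bile duct organoid 3. Yap1 was at 21.6 ± 0.621 scaled FPKM (SD, n = 3) in bile duct organoids and 21.3 ± 0.625 (SD, n = 3) in those of the pancreatic duct. Its log2 difference was 0.02 with a 95% interval of -0.21 to 0.24. That of Tead4 was 0.03, with an interval of -0.34 to 0.41. The intervals were wide for Ankrd1, -2.08 to 1.66 around -0.21, for Tead2, -1.64 to 0.65 around -0.50, and for Amotl2, -1.75 to 0.47 around -0.64. A p above the threshold does not show that the organs are alike, and for these 3 genes a 2-fold difference lay within the interval. Single libraries moved them: Tead2 was at -0.97 without bile duct organoid 1 and -0.16 without pancreatic duct organoid 2. Amotl2 was at -1.17 without pancreatic duct organoid 3 and -0.34 without pancreatic duct organoid 2. With single libraries left out Ankrd1 ran from -0.97 to 0.23. None of these values passed the limma threshold after adjustment. In none of the 10 genes were the organoids of the organs apart without overlap, against 6.89% of all genes tested.

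The members differed in how far single organoid cultures spread. The highest organoid was 1.07 times the lowest for Yap1, 3.20 times for Amotl2, 3.60 times for Tead2 and 5.58 times for Ankrd1. On the log2 scale the SD within an organ was 0.04 for Yap1, at the 0.834th percentile of all genes tested in organoids. It was 1.17 for Ankrd1 (percentile 98.4), 0.71 for Tead2 (percentile 93.4) and 0.69 for Amotl2 (percentile 92.9). Each of these 3 genes was highest in organoid 1 of the bile duct cultures and in organoid 2 of the pancreatic duct cultures. In pancreatic duct organoid 1 Ankrd1 and Amotl2 were close to that level.

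**Figure D4:**
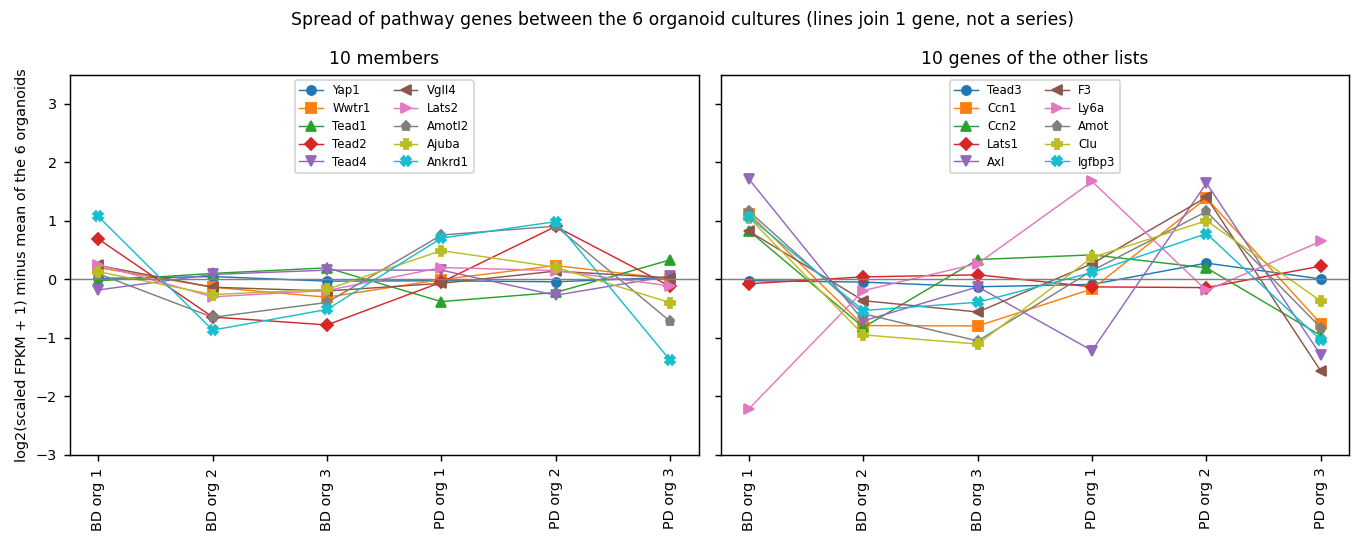
Deviation of each gene from its mean over the 6 organoids on the log2(scaled FPKM + 1) scale, for the 10 members on the left and for 10 genes of the other lists on the right; lines join the values of 1 gene and stand for no order. Yap1 stays near 0 throughout, and Ankrd1, Tead2 and Amotl2 spread widely.

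Bile duct organoid 1 and pancreatic duct organoids 1 and 2 also shared other traits. Their summed FPKM of the Y-linked genes Ddx3y, Eif2s3y, Kdm5d and Uty was 0, as in both fresh epithelia. The other 3 organoids held traces of 0.06 to 0.13 FPKM, where 1 read per kb was worth 0.048 to 0.054 FPKM. Xist was at 20.3, 23.5 and 20.8 scaled FPKM in the 3 organoids at 0 and at 84.8, 83.7 and 75.5 in the others. In fresh bile and fresh pancreatic duct epithelium it was at 39.8 and 59.8. The sex of the animals was not derived from these values. The 6 proliferation markers summed to 220, 242 and 159 in the 3 organoids at 0 and to 309, 317 and 288 in the others. Mki67 was at 18.3 to 31.0 against 52.8 to 63.9. Fibroblast markers summed to 0.15, 0.18 and 0.35 against 2.21, 2.16 and 2.51. Hepatocyte markers summed to 14.5, 8.27 and 6.44 against 140, 35.0 and 78.6, and duct epithelial markers to 10464, 11200 and 9732 against 6561, 6986 and 5132. This division was made after the values were seen, with Ankrd1 already high in the same 3 libraries, so the counts are descriptions only. With it, 5 of the 10 genes were higher in the 3 organoids without Y-linked reads and did not overlap the others (Tead2, Ankrd1, Ajuba, Amotl2, Lats2). Tead1 was lower, and 4 overlapped. In the same way 9 of 21 machinery genes, 10 of 22 target genes and 4 of 10 duct epithelial markers were higher, and 2, 1 and 0 of them lower. Without overlap were 35.3% of all genes, 18.4% as higher and 16.9% as lower. Each set holds 2 organoids of 1 organ and 1 of the other. The part of these traits in the members' spread was not tested.

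The rest of the pathway was read from a list of 26 machinery genes and a list of 24 target genes. Vgll1 and Foxf2 did not pass the filter on low values, and Vgll2 was not analysed here. Of 24 tested genes of the Hippo and TEAD machinery, 8 rose, 5 fell and 11 did not pass, with a median log2 difference of 0.17 against 0.10 over all genes. Over all genes 32.0% were called higher and 27.2% lower, so these counts are near the background. With upper quartile scaling 5 rose and 7 fell, with a median of -0.06 against -0.11, and with FPKM as deposited 11 rose and 4 fell, with a median of 0.32 against 0.23. Of 22 tested, 3 rose and 3 fell without fresh bile duct epithelium, and 5 rose and 1 fell without fresh pancreatic duct epithelium. The scaffold gene Wwc1 (KIBRA), which activates LATS kinases, rose from 12.5 and 10.8 scaled FPKM in the fresh epithelia to 72.1 to 114 in the organoids. Its log2 difference was 2.80 ± 0.18 (SE) with a limma adjusted p of 1.57e-05. The kinase gene Stk4 (MST1), the Hippo kinase upstream of LATS, rose by 0.59 ± 0.14 (SE, limma adjusted p 0.00825), a call lost when either epithelium was left out. Nuak2, a kinase gene that is also a YAP target, rose by 1.79 ± 0.59 (SE, limma adjusted p 0.0341), and Taok3, an upstream kinase gene, by 0.60 ± 0.21 (SE, limma adjusted p 0.0454). These calls were lost in 6 of 16 and 9 of 15 alternatives.

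Those that fell included genes with low levels in organoids. Vgll3, a TEAD cofactor known from mesenchymal cells, had 9.82 and 10.7 scaled FPKM in the fresh epithelia and 0.389 to 1.23 in the organoids. It fell by 2.70 on the log2 scale, with an SE of 0.17 and a limma adjusted p of 1.58e-05. The atypical cadherin gene Dchs1 stood at 3.83 and 5.27 in the fresh libraries and at 0 in 5 organoids, with 0.010 in the other. Its partner Fat4 had 3.12 and 3.49 and at most 0.030 in an organoid. Frmd6, which encodes a Hippo regulator of the cell cortex, fell by 0.67, with an SE of 0.22 and a limma adjusted p of 0.0341, a call lost in 5 of 16 alternatives. Beside these falls stand those of the marker lists: 6 of 6 fibroblast, 6 of 6 smooth muscle and 6 of 6 endothelial genes fell in organoids.

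**Figure D5:**
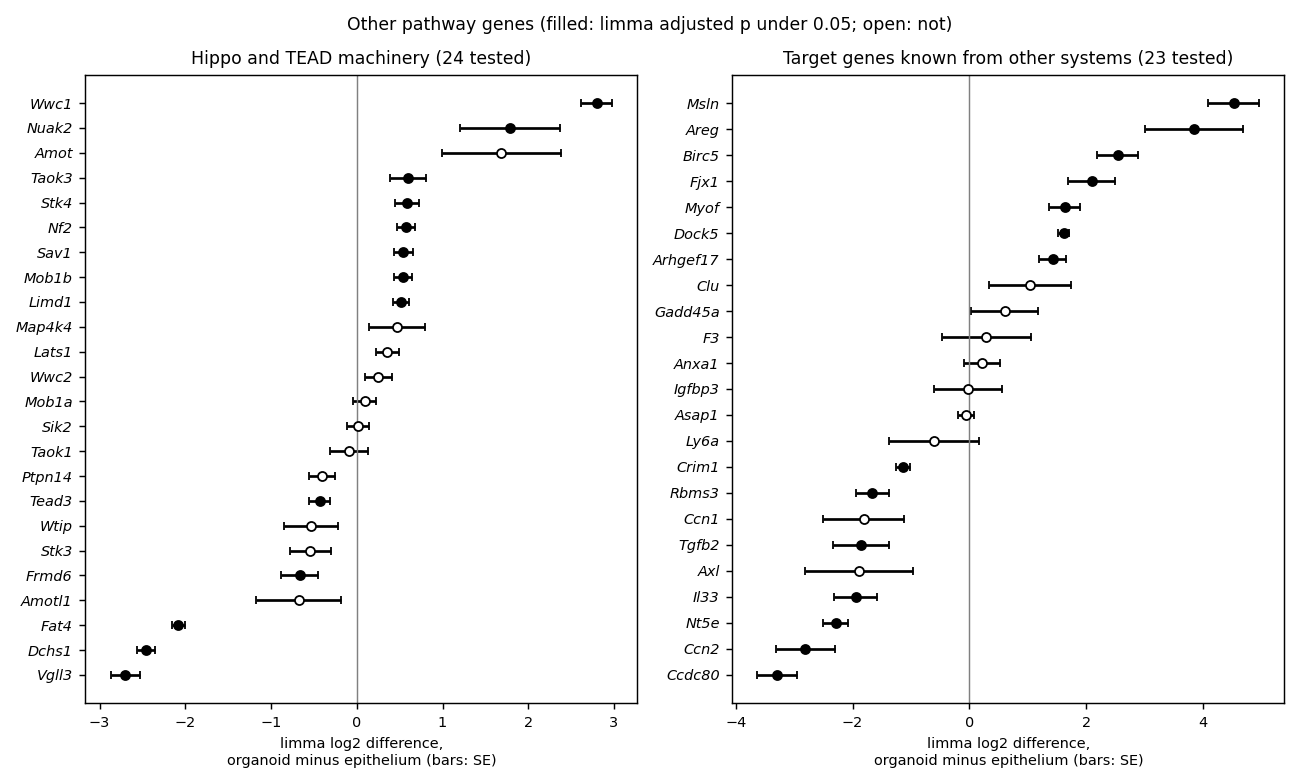
Limma log2 difference, organoid minus epithelium, with SE for 24 machinery genes (left) and 23 target genes (right); filled points have an adjusted p under 0.05. Wwc1 and Msln are the highest and Vgll3 and Ccdc80 the lowest of their panels.

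Of 23 tested target genes known from other systems, 7 rose, 7 fell and 9 did not pass, near the 32.0% higher and 27.2% lower of all genes, with a median log2 difference of -0.03 against 0.10 over all genes. With upper quartile scaling 7 rose and 8 fell. Without fresh pancreatic duct epithelium 6 rose and 4 fell of 22, and by limma-voom 4 rose and 6 fell of 17, with a median of -0.60 against 0.14. The median was 0.30 without fresh bile duct epithelium and 0.23 without pancreatic duct organoid 3, so its sign depends on single libraries. The share of all genes called by limma-voom is not given here, so the limma-voom counts have no background to be set against. Msln, which encodes the surface protein mesothelin, rose from 15.8 and 29.4 scaled FPKM to 320 to 802, a log2 difference of 4.52 ± 0.44 (SE) with a limma adjusted p of 0.000132. Areg, an EGF receptor ligand, had 18.2 in fresh bile duct epithelium and 0.523 in fresh pancreatic duct epithelium, and 39.9 to 113 in organoids. Its difference was 3.85 ± 0.84 (SE, limma adjusted p 0.00629), a call lost without fresh pancreatic duct epithelium (1.97, adjusted p 0.0673). Birc5, the survivin gene of dividing cells, rose by 2.54 ± 0.34 (SE, limma adjusted p 0.000667), beside a rise of 6 of 6 proliferation markers. Fjx1, a gene of the FAT and DCHS branch, rose by 2.09 ± 0.41 (SE, limma adjusted p 0.00365), a call lost without fresh bile duct epithelium.

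The secreted proteins CCN1 and CCN2 are the other common YAP readouts. Ccn2 had 141 and 174 scaled FPKM in the fresh epithelia and 10.6 to 38.9 in the organoids, without overlap. It fell by 2.81 on the log2 scale, with an SE of 0.51 and a limma adjusted p of 0.00263. Ccn1 had 210 and 388 in fresh bile and fresh pancreatic duct epithelium, 177, 46.2 and 46.0 in bile duct organoids and 71.9, 213 and 47.3 in pancreatic duct organoids. Pancreatic duct organoid 2 overlapped fresh bile duct epithelium. Its log2 difference was -1.81 ± 0.70 (SE) and did not pass (limma adjusted p 0.0591), though it did in 4 alternatives. In the same libraries Ankrd1 was higher in organoids and Ccn2 lower. Ccdc80, a matrix protein gene, fell by 3.29, with an SE of 0.34 and a limma adjusted p of 0.000174. Nt5e, the ecto-nucleotidase CD73, fell by 2.29 (limma adjusted p 0.000115). Il33, an alarmin gene, fell by 1.95 (limma adjusted p 0.00335), a call lost without fresh pancreatic duct epithelium.

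By Pearson correlation of log2(scaled FPKM + 1) over the 8 libraries among 10734 other genes, the patterns most like that of Yap1 were those of Fbxo22 (0.997), Rnf5 (0.997) and Hif1an (0.996). Those most like that of Ankrd1 were Casp8 (0.987), Fam84a (0.984) and Nectin4 (0.979). These are descriptions over libraries that share the step from epithelium to organoid. Casp8 ran from 14.3 scaled FPKM in fresh pancreatic duct epithelium to 52.5 in bile duct organoid 1, the lowest and highest libraries of Ankrd1 as well.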

How the data were processed

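The table holds FPKM per gene for 8 libraries, deposited by the authors. Per the labels' protocols, poly-A RNA was made into NEBNext Ultra libraries. Bowtie2 2.2.3, HISAT2 2.1.0, TopHat2 and HTSeq 0.6.0 are listed per the submitters' processing notes, with no role given. The genome build is not given in the sources used here; gene coordinates of the deposited table were identical to GENCODE M21 (GRCm38) for 28577 genes. With M21 exon lengths, 28310 of 31228 genes (90.7%) gave whole reads in all 8 libraries, within 0.05 reads. Reads of Ankrd1, Ajuba and Lats2 did not come out whole and are approximate.

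FPKM were rescaled by a trimmed mean of log ratios (30% of ratios and 5% of levels trimmed, no weights) and tested as log2(scaled FPKM + 1) with limma 3.58.1 in R 4.3.3, with an intensity trend. The pseudocount of 1 understates the change of low genes. Genes needed 1 FPKM in 2 of 8 libraries, or in 3 of 6 organoids for the comparison of organs. The scaling moved organoid minus epithelium by -0.15 (bile duct) and -0.17 (pancreatic duct) on the log2 scale relative to the deposited values. The method was tested on simulated data. Alternatives were other scalings, pseudocounts, filters and models, voom on the recovered reads and leaving out each library.

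The 10 genes and all lists were chosen with earlier results of these data known. Besides the 10, the text names Tead3, Ccn1, Ccn2, Lats1, for each list up to 4 called genes per direction by size of difference, and the 3 genes most like Yap1 and Ankrd1. Outside this rule it names some cell type and proliferation markers, Xist, Y-linked genes, genes that overlap a member and listed genes that were not tested. Casp8 levels were chosen for printing after its values were seen.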

Additional observations from a re-analysis of the deposited data

How the results depend on the processing

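Of the 10 genes, 5 or 6 were called between organoid and epithelium under every alternative that kept both epithelia and was run on all 10. By limma-voom 3 of the 7 with whole reads were called. In the main fit 59.2% of the 14919 genes tested were called, so 5 or 6 of 10 is near the background. The share of all genes called by limma-voom is not given here. The gene count was 8834 (4775 higher, 4059 lower), 4680 at a minimum of 10 FPKM, and 4272 to 9145 when single libraries were left out; the extremes at the low end were without pancreatic duct epithelium (4272) and without bile duct epithelium (4722), which leaves fewer samples. Upper quartile scaling called 3546 higher and 4976 lower and moved the median of all genes from 0.10 to -0.11. Signs turned only in small differences. For Amotl2 the value was 0.068 with FPKM as deposited and -0.22 to 0.16 when single libraries were left out. For Vgll4 it was 0.13 with FPKM as deposited, 0.0047 with limma-voom and -0.075 to 0.048 with libraries left out. For Tead1 it was -0.045 with upper quartile scaling and -0.16 to 0.53 with libraries left out. The genes 2-fold apart at a minimum of 10 FPKM were 3025 in bile duct, 3282 in pancreatic duct and 836 between epithelia. Between organs in organoids 0 to 11 genes were called when single libraries were left out, 11 of them without pancreatic duct organoid 3. There Yap1 ran from -0.016 to 0.026, Tead4 from -0.090 to 0.13 and Ankrd1 from -0.97 to 0.23. Tead2 ran from -0.97 to -0.16 and Amotl2 from -1.17 to -0.34, and Vgll4 was at -0.21 without bile duct organoid 1. Of the 10 genes, with single libraries left out an unadjusted p under 0.05 was reached by Tead2 without bile duct organoid 1 (0.0330) and by Amotl2 (0.00435), Tead1 (0.0349) and Ajuba (0.0441) without pancreatic duct organoid 3, none of them past the limma threshold after adjustment. A block for Y-linked reads, chosen after seeing the data, gave -0.035 for Tead4, -0.17 for Tead2, -0.28 for Amotl2 and 0.00018 for Vgll4. For Ankrd1 it gave 0.45 (unadjusted p 0.0437, limma adjusted p 0.971). With that block 0 genes were called by limma and 618 had an unadjusted p under 0.05. Same-numbered organoids did not deviate together (r of -0.10, -0.44 and 0.48), so the numbers were not taken as pairs; with the replicate number as a block 0 genes were called by limma and 281 had an unadjusted p under 0.05, against 303 without it, and 0 by limma-voom. The cause of these shifts was not tested. With 1 epithelial library per organ, no spread between epithelia of an organ could be measured.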
